A study of Mus musculus with 8 samples.

Results

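The hypothalamus of mice made diabetic with streptozotocin (STZ), a toxin taken up by the insulin-producing beta cells of the pancreas, was compared with that of saline controls, across all detected genes of an Illumina MouseRef-8 v2 bead array. The STZ group held 3 arrays (STZ 1, STZ 2 and STZ 3) from mice with STZ-induced type 1 diabetes, injected intraperitoneally 2 times per week. The saline group held 2 arrays (saline 4 and saline 5). These are 5 of the 8 arrays of the series. The other 3, from STZ mice with leptin infusion, entered only the normalization, the detection filter and the estimate of the spread. All mice were males of 12 to 15 weeks, with the strain given as mixed. The labels give neither a blood glucose value nor the interval between injection and dissection. Whether the arrays of a group stem from different animals is not stated either, and the p-values below cover only the spread from array to array, which may be technical. STZ 3 has the replicate number of STZ 1 in its description, but STZ in its title, which was followed.

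The hypothalamus holds small groups of neurons that read circulating glucose, insulin and leptin and set feeding, heat production, pituitary hormones and water balance. Around them lie astrocytes, oligodendrocytes, microglia, the vessels of the blood-brain barrier and the tanycytes that line the third ventricle. Insulin deficiency raises blood glucose, ketones and circulating glucocorticoids and lowers leptin. Hyperglycaemia and ketosis reach the brain through transporters on endothelial and glial cells, and the water loss of diabetes drives vasopressin neurons.

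After quantile normalization, 15494 of 25697 probes were kept, standing for 10703 genes, each read at its kept probe of highest mean signal. Values are log2 normalized intensities, and differences are STZ minus saline with the moderated standard error of limma. A gene was called at a Benjamini-Hochberg adjusted limma p under 0.05. By this rule 494 genes were called (4.62% of the genes tested), of which 465 rose (4.34%) and 29 fell (0.271%). Over probes, 664 were called (4.29%), 616 higher (3.98%) and 48 lower (0.310%). The median difference of all genes was -0.08. Of the genes that rose, 391 did so at least 2-fold, against 2 of those that fell. Symbols with the prefixes of immune gene families (Gbp, Irgm, H2-, Cxcl, C1q and others) made up 190 of the 465, a rough division, since Cdk1, Cdk2 and Cdc20 share a prefix with the Cd antigens. The remaining 275 rises and the 29 falls are the main subject here.

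The arrays of a group were not alike, and tissue content is given before the results that it touches. Probes detected per array numbered 13608 to 14776 over the 8 arrays. STZ 1 correlated at 0.969 with STZ 2 and at 0.979 with STZ 3, against 0.970 with saline 4, so by this measure it lay no nearer to STZ 2 than to a saline array. The saline arrays correlated with each other at 0.992. Among the markers of hypothalamic neurons, 27 of 31 kept peptide genes and 15 of 20 kept transcription factor genes were detected on all 5 arrays.

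STZ 2 carried pituitary transcripts. Gh, growth hormone, read 4.67, 14.98 and 5.65 on STZ 1, STZ 2 and STZ 3, against 5.28 and 6.71 on saline 4 and saline 5. Prl, prolactin, read 5.70, 14.93 and 7.83 on the STZ arrays, against 9.39 and 5.26 on the saline arrays. The beta chain of thyrotropin, Tshb, read 4.74, 11.14 and 4.50 on the STZ arrays, against 5.22 and 5.58 on the saline arrays. STZ 2 stood far above every other array for all of these hormones. Without it the groups overlapped for Gh and Prl. Tshb was undetected on STZ 1 and STZ 3, and read lower there than on both saline arrays. The summed linear level of the 14 kept anterior pituitary genes was 85010 units on STZ 2, 2558 on STZ 1 and 2801 on STZ 3, against 3799 and 3435 on the saline arrays. In all, 13 genes lay at least 2 log2 units above each of the other 4 arrays on STZ 2, and none did so on any other array. They included 6 pituitary hormone genes, the neutrophil genes S100a8, S100a9 and Retnlg, and the red cell genes Hbb-b2 and Alas2. The 6 kept red cell genes summed to 37670 units on STZ 2, against 6656 and 12690 on the other STZ arrays and 10420 and 15620 on the saline arrays.

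STZ 1 was low in choroid plexus and meningeal transcripts. Ttr, transthyretin, the main product of the choroid plexus, read 8.74 on STZ 1, 14.77 on STZ 2 and 14.84 on STZ 3, against 13.71 and 14.75 on the saline arrays. Altogether 7 genes lay at least 2 log2 units below each of the other 4 arrays on STZ 1: Ttr, Slc47a1, Slc13a4, Mgp, Kcne2, Ogn and Ecrg4. Kcne2, a potassium channel subunit of choroid plexus epithelium, read 4.74, 7.16 and 7.13 on the STZ arrays, against 7.07 and 8.39 on the saline arrays. Ogn, a matrix proteoglycan of the meninges, read 5.87, 8.29 and 8.10 on the STZ arrays, against 8.35 and 8.59 on the saline arrays. These were differences within the STZ group, and none of these genes passed the test between the groups. On STZ 3, only Slc6a3, the dopamine transporter, lay that far below the rest, at 6.59, against 9.85 and 9.04 on STZ 1 and STZ 2 and 10.69 and 9.49 on the saline arrays. The names in this and the preceding paragraph, other than the fixed hormone and Ttr genes, were picked by their values and are given as a description.

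**Figure D1:**
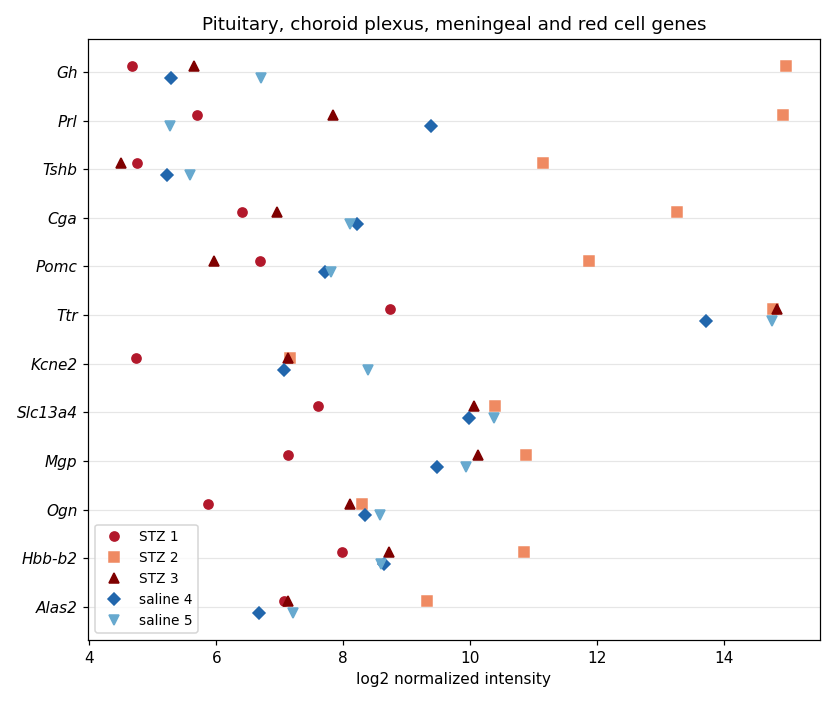
Log2 normalized intensity (x axis) of pituitary (Gh to Pomc), choroid plexus and meningeal (Ttr to Ogn) and red cell genes (Hbb-b2, Alas2) on the 3 STZ arrays and the 2 saline arrays, 1 point per array. STZ 2 stands alone on the right for the pituitary and red cell genes, and STZ 1 alone on the left for Ttr to Ogn.

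The genes that fell were few and their changes were small. Of the 29, 22 were in no gene list, and cells of origin were not tested. The median difference of the 29 was -0.79, with a range between -0.58 and -1.36. For each of the 29 the STZ arrays all lay below the saline arrays. Non-overlap alone is not rare in so small a design: 2045 of the 10703 genes (19.1%) were lower on every STZ array than on every saline array. Of the 29, 4 were undetected on all STZ arrays, near the floor of the assay. STZ 1 lay within 0.5 log2 units of the mean of STZ 2 and STZ 3 for all 29. The calls rested on few arrays: 48 probes were called lower with all arrays, 163 without STZ 1, 18 without STZ 2, 20 without STZ 3, 3 without saline 4 and 2 without saline 5. Of the 22 fallen genes named in this text, Gkn3 alone passed in all 5 fits that left out 1 array, and the others passed in 0 to 3 of them.

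Gkn3, a marker of arterial endothelial cells in mouse brain, had the lowest difference. It read 5.82, 5.84 and 5.90 on the STZ arrays, against 7.28 and 7.14 on the saline arrays. The STZ arrays lay close together and well below both saline arrays, a fall of 1.36 ± 0.16 log2 (SE), or 2.57-fold (limma adjusted p = 0.00132). It passed under all 17 alternative settings. No other of the 30 kept endothelial markers was called, and the list median was 0.03.

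Enpp6, a choline phosphodiesterase made by newly forming oligodendrocytes, read 8.25, 8.02 and 7.93 on the STZ arrays, against 9.06 and 9.12 on the saline arrays. Every STZ array was lower than each saline array, with a fall of 1.02 ± 0.15 (adjusted p = 0.00406, limma). Of the 21 kept genes of oligodendrocyte precursors and new oligodendrocytes, Enpp6 was the only call, and the median was -0.22. No call was made among 38 kept genes of mature oligodendrocytes and myelin, whose median was -0.22 as well. The lowest p-values there belonged to Qdpr (difference -0.65, adjusted p = 0.0885) and Opalin (-0.87, adjusted p = 0.098), by limma. Mbp, myelin basic protein, read 14.98, 15.05 and 14.99 on the STZ arrays and 15.15 and 15.01 on the saline arrays, near the top of the scale, and the groups overlapped.

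Several falls concerned hormone and peptide signalling. Hsd11b1, which regenerates active glucocorticoid inside cells, read 9.83, 9.55 and 9.96 on the STZ arrays, against 10.64 and 10.51 on the saline arrays. It was lower on every STZ array, at -0.79 ± 0.16 (adjusted p = 0.0248, limma), and all 3 of its kept probes were called. Igsf1, a membrane glycoprotein whose loss causes central hypothyroidism in humans and mice, read 11.23, 10.87 and 10.75 on the STZ arrays, against 11.97 and 11.74 on the saline arrays. Its difference was -0.90 ± 0.17 (adjusted p = 0.0195, limma). The probes of Igsf1 did not all move alike: 2 of 4 were called, the next showed -0.40 and the dimmest 0.33. Crhr1, the main receptor of corticotropin-releasing hormone, read 6.10, 6.05 and 5.78 on the STZ arrays, against 6.66 and 6.62 on the saline arrays (-0.67 ± 0.14, adjusted p = 0.0343, limma). Among 35 kept hypothalamic receptor genes, only Crhr1 and Bdnf (a ligand entered in that list as well) were called. The list median was -0.30.

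Bdnf, a growth factor that restrains feeding through hypothalamic neurons, read 8.13, 7.96 and 7.84 on the STZ arrays, against 8.80 and 8.81 on the saline arrays. The fall was 0.83 ± 0.16 (adjusted p = 0.0203, limma). It was called on 1 of 3 kept probes, with -0.58 and -0.35 on the others. Nptx1, a secreted protein of excitatory synapses, was the only call among 17 kept genes of cortical and hippocampal neurons (-0.79 ± 0.17, adjusted p = 0.0328). That call failed when any 1 of the 5 arrays was left out. Mkrn3, an imprinted gene that restrains the onset of puberty, fell by 0.90 (± 0.20, adjusted p = 0.04), and passed under 3 of 16 alternative settings.

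Other falls lay in the extracellular matrix, in lipid synthesis and in chemokine signalling. Chst3, which sulphates chondroitin chains of the matrix around neurons, was called on both of its probes, with a main difference of -0.89 ± 0.17 (adjusted p = 0.0213). Ltbp4, which binds latent TGF-beta in the matrix, had -0.78 ± 0.14 (adjusted p = 0.0137). Elovl6, the elongase that turns palmitate into stearate, read 9.46, 9.66 and 9.42 on the STZ arrays, against 10.10 and 10.25 on the saline arrays (-0.66 ± 0.15, adjusted p = 0.036). Cxcl12, a chemokine of brain endothelium, meninges and some neurons, had -0.999 ± 0.16 at its brightest probe (adjusted p = 0.00635), while its other 2 probes showed -0.44 and -0.11 and were not called. Lpar4, a receptor for lysophosphatidic acid, fell by 0.82 (± 0.15, adjusted p = 0.0179). All these p-values are those of limma. The remaining genes among the 20 lowest were Clip2, 6030458C11Rik, Swi5, Cabp7, Smco3, Gzmn, Purb, Zfp536 and Olfr259, with differences between -0.74 and -0.94. Gzmn was undetected on all STZ arrays, and its fall was at least 1.39-fold.

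**Figure D2:**
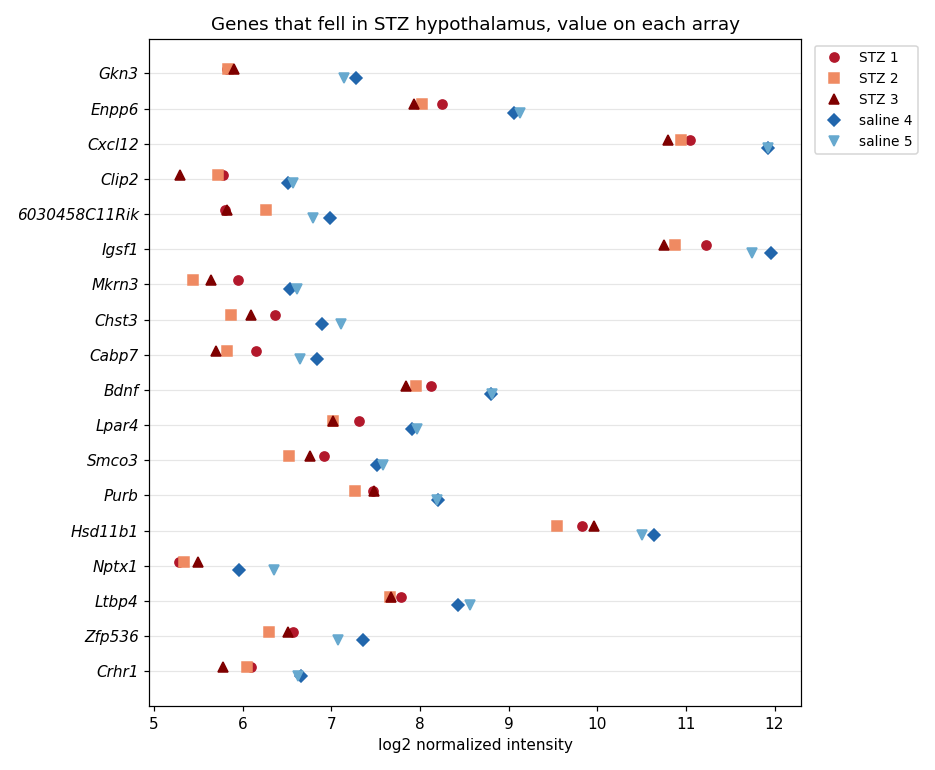
Log2 normalized intensity (x axis) on each STZ and saline array of the 18 genes with the lowest differences among the fallen genes detected on all STZ arrays, 1 point per array. For every gene shown, the 3 STZ points lie left of both saline points, most clearly for Gkn3 and least widely for Nptx1.

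Neuronal gene lists gave no call in either direction, but nearly all of their members leaned lower. Of 17 kept neuron markers, 16 had a negative difference, as did 22 of 23 genes of synaptic vesicles and SNARE proteins, 17 of 18 GABA and glutamate receptor genes and 32 of 34 ion channel genes. Over all genes 64.2% had a negative difference. The list medians were -0.20, -0.20, -0.23 and -0.24, against -0.08 for all genes. They stayed negative under all 16 settings tried. By array the 4 lists did not share 1 pattern: synaptic vesicle genes had a median of 0.08 on STZ 1, against -0.33 on STZ 2 and -0.33 on STZ 3, relative to the saline mean. In a bulk tissue, fewer cells of a type and less RNA per cell cannot be told apart.

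Within these lists no member passed, and the values with the lowest p are given as such. Rbfox3, the nuclear protein NeuN of mature neurons, read 11.91, 12.01 and 11.81 on the STZ arrays, against 12.25 and 12.43 on the saline arrays (-0.43, limma adjusted p = 0.194). Nefm, a neurofilament subunit, showed -0.48 (adjusted p = 0.157). Scn8a, a sodium channel of axons, showed -0.46 (adjusted p = 0.14), and Kcna2, a potassium channel of axons, -0.51 (adjusted p = 0.193). Rims1, a protein of the presynaptic active zone, showed -0.69 (adjusted p = 0.208), and Gabrb2, a GABA-A receptor subunit, -0.58 (adjusted p = 0.261). For each of them all STZ arrays lay below both saline arrays. The summed linear level of the 17 neuron markers was 114600, 94980 and 97900 units on the STZ arrays, against 118400 and 116100 on the saline arrays. Among 23 kept monoamine and acetylcholine genes none was called, 17 had a negative difference and the median was -0.27. Chrm2, a muscarinic acetylcholine receptor, read 5.52, 6.26 and 5.56 on the STZ arrays, against 6.73 and 6.54 on the saline arrays (-0.86, adjusted p = 0.115). Hdc, which makes histamine in the tuberomammillary neurons, showed 0.55 (adjusted p = 0.162).

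Peptide hormones varied between arrays of the same group. Among 31 kept peptide genes only Bdnf was called, and the list median was -0.27. Cartpt, an anorexigenic peptide precursor, read 9.89, 10.75 and 10.49 on the STZ arrays, against 11.41 and 11.55 on the saline arrays. The groups did not overlap, and the difference of -1.10 ± 0.29 missed the threshold (limma adjusted p = 0.0789). Its second kept probe showed -1.07 (adjusted p = 0.0605). Avp, vasopressin, read 12.27, 12.79 and 12.79 on the STZ arrays, against 11.13 and 11.83 on the saline arrays, at 1.14 ± 0.37 (adjusted p = 0.174). Pmch, the orexigenic melanin-concentrating hormone, and Hcrt, the arousal peptide orexin, showed -0.39 (adjusted p = 0.367) and -0.71 (adjusted p = 0.358). Npy, Gal, Trh, Sst and Oxt had differences between -0.27 and 0.45, none called. Vgf, a granin-like precursor of secretory granules, read 10.05, 10.05 and 9.87 on the STZ arrays, against 10.65 and 10.80 on the saline arrays (-0.74, adjusted p = 0.0761). The transcription factor Lhx1, found in the suprachiasmatic nucleus, showed -1.08 (adjusted p = 0.0623).

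Pomc, the precursor of melanocortins in arcuate neurons and of corticotropin in the pituitary, rested on 1 array. It read 6.69, 11.88 and 5.97 on the STZ arrays, against 7.72 and 7.81 on the saline arrays. Its highest value lay on STZ 2, the array with pituitary hormones, while STZ 1 and STZ 3 were below both saline arrays. The difference was 0.42 with all arrays (limma adjusted p = 0.93) and -1.44 without STZ 2 (adjusted p = 0.029). The summed level of the anterior pituitary genes was also lower on STZ 1 and STZ 3 (2558 and 2801 units) than on the saline arrays (3799 and 3435). The part of pituitary content in the Pomc difference without STZ 2 was not tested.

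**Figure D3:**
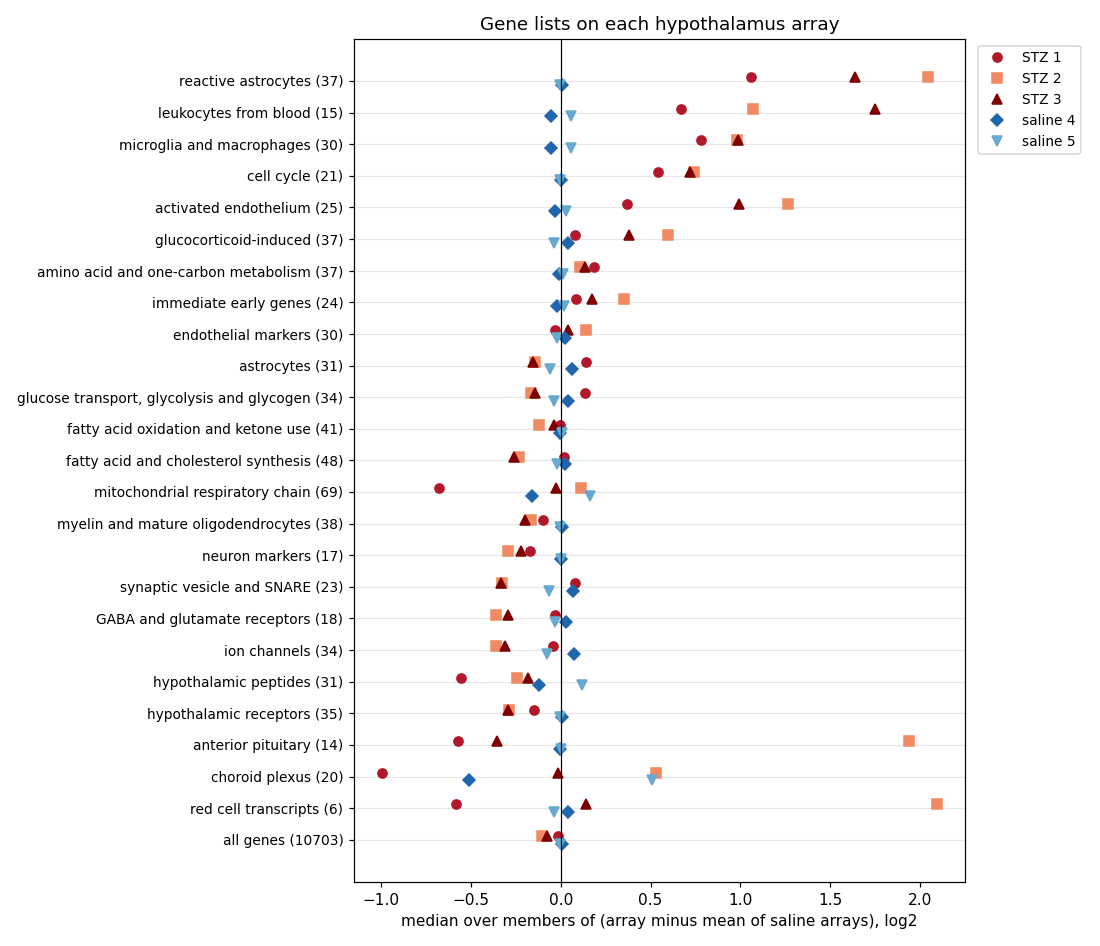
Median over the kept members of each list (number in brackets) of the array value minus the mean of the saline arrays, on the log2 scale (x axis), 1 point per array. Reactive astrocyte, leukocyte, microglia, cell cycle and activated endothelium lists lie to the right on all STZ arrays, neuronal lists lie slightly left on STZ 2 and STZ 3, and single arrays stand apart for the pituitary, choroid plexus and red cell lists.

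Cell division genes rose on all 3 STZ arrays. Of 21 kept cell cycle genes, 9 rose and none fell, with a list median of 0.67. Across all genes 4.34% rose and 0.271% fell. Tk1, thymidine kinase of the DNA synthesis phase, read 6.77, 6.67 and 6.83 on the STZ arrays, against 5.01 and 4.65 on the saline arrays, where it was undetected. It was at least 2.96-fold higher (difference 1.92 ± 0.28, limma adjusted p = 0.00373). Cdk1, the kinase that drives entry into mitosis, read 6.28, 6.43 and 6.57 on the STZ arrays, against 4.66 and 4.96 on the saline arrays, and was at least 2.35-fold higher (adjusted p = 0.00145, limma). Top2a, the topoisomerase that untangles replicated chromosomes, read 6.09, 5.86 and 5.99 on the STZ arrays, against 4.50 and 4.42 on the saline arrays, and was at least 1.73-fold higher (adjusted p = 0.000627, limma). STZ 1 was not the lowest of its group for Tk1 or Top2a, and the STZ arrays lay closer to each other than to either saline array for each of these genes.

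The helicase subunits that license replication origins rose in part. Mcm5 read 8.73, 8.51 and 8.35 on the STZ arrays, against 7.24 and 7.17 on the saline arrays (1.33 ± 0.19, limma adjusted p = 0.00368). Mcm6 and Mcm2 rose by 1.11 and 0.78, while Mcm3 (0.40, adjusted p = 0.381) and Mcm4 (0.19, adjusted p = 0.636) were not called. Cdk2, Cdc20 and Birc5, acting at the start of DNA synthesis, at the exit from mitosis and at the centromere, rose by 1.16, 1.25 and 1.72. Pcna and the D-type cyclins Ccnd1 and Ccnd2 showed differences between -0.02 and 0.10. Outside the list, and picked after their values were seen, the mitotic kinase Pbk (2.45), the DNA methylation factor Uhrf1 (2.16) and the spindle genes Kif2c (1.96) and Prc1 (1.83) were also called. Mki67, Ccna2, Ccnb1, Ccnb2, Bub1, Mcm7 and Ube2c, further entries of the list, had no kept probe. The number of list members called lay between 3 and 11 when 1 array was left out, with the lowest count without saline 5 and the highest without STZ 1.

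Promoters of genes expressed in dividing cells often carry CCAAT boxes, the element TTTGAA near the start site, and E2F sites, and the stretches before the start of 4 of these genes show how they lie. RefSeq sequence of mouse build GRCm38.p6 is given up to the base before the annotated start, 5′ to 3′ on the gene's strand, with TTTGAA and CCAAT in capitals on either strand.
Cdk1, chr10:69352913-69353032, minus strand: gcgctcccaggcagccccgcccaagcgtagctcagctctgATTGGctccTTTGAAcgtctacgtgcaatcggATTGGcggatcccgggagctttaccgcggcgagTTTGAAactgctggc
Cdc20, chr4:118437344-118437463, minus strand: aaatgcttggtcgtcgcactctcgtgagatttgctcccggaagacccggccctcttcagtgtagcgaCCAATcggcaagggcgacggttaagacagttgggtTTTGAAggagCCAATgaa
Top2a, chr11:99024190-99024309, minus strand: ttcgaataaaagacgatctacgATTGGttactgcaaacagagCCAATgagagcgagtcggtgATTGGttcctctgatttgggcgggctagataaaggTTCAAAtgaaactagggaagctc
Mcm5, chr8:75109389-75109508, plus strand: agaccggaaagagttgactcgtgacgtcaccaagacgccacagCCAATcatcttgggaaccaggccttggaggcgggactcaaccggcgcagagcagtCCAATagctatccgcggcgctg
In Cdk1, Cdc20 and Top2a a TTTGAA match begins 15, 18 and 23 bases before the start, with CCAAT matches upstream of it. In windows from 250 bases before to 50 after the start, TTTGAA was present for 4 of the 9 cell cycle genes that rose (Cdc20, Cdk1, Mcm2 and Top2a), and for none of the 9 with a window among the 12 kept members that were not called. Of all 27025 genes with a window, 20.2% held it. CCAAT was present for 7 of the 9 that rose and for 6 of those 9 not called, and for 41.1% of all genes. The E2F-type letters TTGGCGC were present for 3 of the 9 that rose, for 1 of those 9 not called and for 2.85% of all genes. The E2F-type letters TTCCCGC were present for 1 of the 9 that rose, for 3 of those 9 not called and for 5.29% of all genes. Both strands were searched, matches of different motifs may overlap, and a match is a description of letters, not a binding site.

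The lists of microglia markers and of blood leukocyte markers also held rises. Of 30 kept microglia and macrophage genes, 13 rose and none fell, where 4.34% of all genes rose and 0.271% fell. Their summed linear level was 51170 to 53200 units on the STZ arrays, against 26710 to 28140 on the saline arrays. Of these 30, 24 had a positive and 6 a negative difference, the lowest being Gpr34 at -0.99. On every STZ array 19 were higher than on both saline arrays, and 2 were lower. Of all 10703 genes, 1395 were higher and 2045 lower in this way. Itgam, Lyve1, Cst7 and Clec7a were undetected on both saline arrays, and Fcer1g on all 5 arrays. Leaving out 1 array gave 8 calls (without saline 4) to 15 (without STZ 1). Of 15 kept leukocyte genes, 5 rose, with a summed level of 6763 to 16730 units on the STZ arrays, against 3036 to 3157 on the saline arrays. On the saline arrays 10 of the 15 were undetected, Cd3g, Cd3d, Cd79a, S100a8 and S100a9 among them, and Cd79a was undetected on all 5 arrays. The count of 5 became 11 without STZ 1 and 2 without STZ 3, saline 4 or saline 5. Adgre1, the macrophage antigen F4/80, stood in neither list and was named as 1 of the 15 highest rises outside the immune prefixes. It read 10.03, 10.28 and 10.42 on the STZ arrays, against 6.24 and 6.33 on the saline arrays (3.96 ± 0.21, limma adjusted p = 2.85e-05). The part of these cells in the rises of cell cycle, metabolic and matrix genes was not tested.

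Of 34 kept genes of glucose handling, 2 rose and none fell, where 4.34% of all genes rose. The list median was -0.07, and 21 of the 34 had a negative difference. Hk2, the hexokinase that binds mitochondria in insulin-responsive and dividing cells, read 9.15, 9.81 and 9.36 on the STZ arrays, against 6.91 and 7.21 on the saline arrays. All STZ arrays stood clear of the saline arrays, at 2.38 ± 0.21 or 5.20-fold (limma adjusted p = 0.000225), and the call held under all 17 settings. Hk1, the main brain hexokinase, showed -0.23 (adjusted p = 0.604). Hk3, a hexokinase of myeloid cells outside the list, rose by 4.03 ± 0.23. Txnip, an inhibitor of thioredoxin and of glucose uptake whose transcript follows glucose in many tissues, read 9.59, 10.49 and 9.83 on the STZ arrays, against 8.59 and 8.41 on the saline arrays. It was higher on each STZ array, at 1.47 ± 0.28 (adjusted p = 0.0187, limma), and passed in 2 of the 5 fits that left out 1 array. Its relative Arrdc4 read 8.86, 9.16 and 9.59 on the STZ arrays, against 8.74 and 8.77 on the saline arrays, and was not called (0.45, adjusted p = 0.368). Slc2a1, the glucose transporter of the blood-brain barrier, read 12.12, 12.13 and 11.92 on the STZ arrays, against 11.89 and 11.53 on the saline arrays, at 0.35 ± 0.18 (adjusted p = 0.423). Citric acid cycle genes gave no call among 35, and respiratory chain subunits none among 69. The respiratory chain median was -0.68 on STZ 1, against 0.11 on STZ 2 and -0.03 on STZ 3.

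The Txnip promoter is shown because carbohydrate response elements, paired E-box-like sites bound by ChREBP and MondoA, are known there. The stretch is RefSeq sequence of GRCm38.p6, on the plus strand, and ends at the base before the start, with the match to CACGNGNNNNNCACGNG in capitals.
Txnip, chr3:96557707-96557956, plus strand: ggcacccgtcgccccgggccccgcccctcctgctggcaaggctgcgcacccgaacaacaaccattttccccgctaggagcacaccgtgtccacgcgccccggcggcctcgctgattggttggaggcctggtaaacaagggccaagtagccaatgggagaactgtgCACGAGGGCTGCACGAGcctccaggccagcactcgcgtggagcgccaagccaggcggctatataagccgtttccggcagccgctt
The match begins 85 bases before the start. Searched on both strands in windows of the same length, this motif was present for 15 of 27025 genes (0.0555%), and among the 32 glucose genes with a window only for Txnip. Hk2 and Arrdc4 held no match in their windows. The motif repeats CACGNG in the same direction, which is the form of the Txnip match itself. The search therefore cannot show whether Hk2, Arrdc4 or other genes hold a carbohydrate response element of another form.

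Of 41 kept genes of fatty acid oxidation and ketone use, 4 rose (Plin4, Plin2, Pnpla2 and Acsl5) and none fell. The list median was -0.06, and 26 of the 41 had a negative difference. Among all genes the share that rose was 4.34%. Plin4, a lipid droplet coat protein, read 7.61, 9.47 and 8.49 on the STZ arrays, against 6.43 and 6.23 on the saline arrays (2.19 ± 0.44, limma adjusted p = 0.0256). Plin2, the droplet protein of most cells, read 6.96, 7.50 and 7.65 on the STZ arrays, against 6.06 and 6.17 on the saline arrays (1.26 ± 0.23, adjusted p = 0.0137, limma). STZ 1 was the lowest STZ array for both, though above the saline arrays. Pnpla2, the first lipase of triglyceride breakdown, and Acsl5, an acyl-CoA synthetase, rose by 0.70 ± 0.15 and 0.69 ± 0.14. Without STZ 3, saline 4 or saline 5, none of the 4 was called. Pdk4, a kinase that spares glucose when fat is burned, read 7.40, 8.74 and 8.53 on the STZ arrays, against 7.50 and 7.84 on the saline arrays, and the groups overlapped. Among 48 genes of fatty acid and cholesterol synthesis, Elovl6 fell and Ch25h, which makes 25-hydroxycholesterol in interferon-exposed cells, rose by 4.23 ± 0.39 (adjusted p under every setting at most 0.0079, limma), while 38 of the 48 had a negative difference and the median was -0.16.

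Of 37 kept genes of amino acid and one-carbon metabolism, 4 rose (Haao, Kynu, Nampt and Arg1) and none fell. The share of all genes that rose was 4.34%. Haao and Kynu, enzymes of the kynurenine route from tryptophan to NAD, were undetected on the saline arrays and at least 1.47-fold and 1.27-fold higher. Kynu passed in 1 of the 5 fits that left out 1 array, and Haao in 4. Nampt, of the NAD salvage route, read 7.997, 8.61 and 8.15 on the STZ arrays, against 7.22 and 7.42 on the saline arrays (0.93 ± 0.21, limma adjusted p = 0.0443). Arg1, arginase of macrophages and liver, read 6.81, 10.53 and 10.67 on the STZ arrays, against 4.32 and 4.57 on the saline arrays. It was at least 17.7-fold higher and very uneven within the STZ group (adjusted p = 0.0225, limma). Arg1 was called without STZ 1 and lost the call without any 1 of the other 4 arrays, and the list count lay between 0 (without saline 4) and 7 (without STZ 1).

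**Figure D4:**
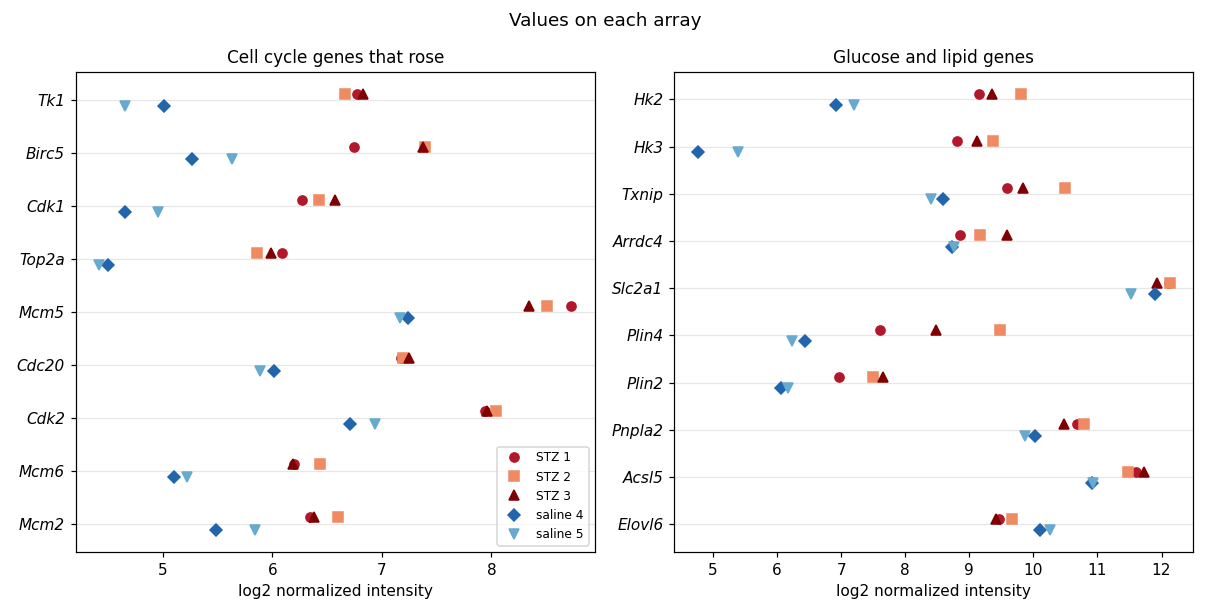
Log2 normalized intensity (x axis) on each STZ and saline array of the 9 cell cycle genes that rose (left panel) and of 10 glucose and lipid genes (right panel), 1 point per array. The STZ points of the cell cycle genes lie close together and right of the saline points, Arrdc4 and Slc2a1 lie close to them, and Elovl6 lies to their left.

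Of 37 kept genes of oxidative stress and metal binding, 5 rose and none fell, where 4.34% of all genes rose. Cp, the ferroxidase ceruloplasmin made by astrocytes and liver, read 9.32, 10.33 and 9.81 on the STZ arrays, against 7.29 and 7.26 on the saline arrays (2.54 ± 0.37, limma adjusted p = 0.00392). Hmox1, which degrades heme, read 7.62, 9.06 and 8.96 on the STZ arrays, against 6.21 and 6.37 on the saline arrays (2.25 ± 0.38, adjusted p = 0.00892, limma). The other 3, Ncf4, Ncf1 and Cyba, are subunits of the phagocyte NADPH oxidase, and rose by 3.63, 1.97 and 2.18. The list median was 0.09, and 3 (without saline 4 or saline 5) to 7 (without STZ 1) members rose when 1 array was left out.

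Genes that glucocorticoids induce gave 6 rises among 37, led by genes with further inducers. Across all genes 4.34% rose. Lcn2, lipocalin 2, an acute-phase protein, read 12.03, 14.55 and 14.29 on the STZ arrays, against 4.86 and 4.56 on the saline arrays. Tgm2, a transglutaminase, read 10.58, 11.94 and 11.40 on the STZ arrays, against 9.03 and 9.04 on the saline arrays (2.27 ± 0.33, limma adjusted p = 0.0044). Mertk, a receptor for dying cells, rose by 0.66 ± 0.13, and Xdh, xanthine dehydrogenase, by 1.94 ± 0.42. Plin4 and Pnpla2, given above, completed the 6. Fkbp5, a chaperone often read as a glucocorticoid marker, read 7.83, 8.70 and 8.11 on the STZ arrays, against 7.79 and 7.71 on the saline arrays (0.46 ± 0.23, adjusted p = 0.413), so it was not called. The count lay between 1 and 11 when 1 array was left out, lowest without saline 4 or saline 5 and highest without STZ 1.

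Glial genes split by kind. Of 31 kept astrocyte genes only Gfap, the intermediate filament of astrocytes, rose, and the list median was -0.07, whereas 19 of 37 kept genes of reactive astrocytes rose, with a median of 1.52. That count was 9 without saline 4, 10 without saline 5 and 24 without STZ 1. Across all genes 4.34% rose in the main fit. Gfap read 10.76, 11.08 and 10.40 on the STZ arrays, against 9.12 and 9.10 on the saline arrays (1.63 ± 0.32, limma adjusted p = 0.0214), and passed in 2 of the 5 fits that left out 1 array. Vim, vimentin of reactive astrocytes, tanycytes and vessels, read 10.35, 10.64 and 10.77 on the STZ arrays, against 8.45 and 8.75 on the saline arrays (1.99 ± 0.30, adjusted p = 0.00525). Aqp4, the astrocyte water channel, read 10.66, 10.15 and 10.32 on the STZ arrays and 10.32 and 10.07 on the saline arrays, and the groups overlapped. Several members of the reactive list, such as Gbp2, Cxcl10, H2-T23 and Psmb8, are also induced by interferon in other cells, and 22 of 23 kept interferon-induced genes rose. Vim was the only call among 24 kept tanycyte and ependymal genes.

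Of 25 kept genes listed for activated endothelium, 5 rose (against 4.34% of all genes): Socs3, Ch25h, Icam1, Vcam1 and Osmr. Glia and leukocytes can also express these genes, and in bulk tissue their source was not tested. The count lay between 3 (without saline 4 or saline 5) and 12 (without STZ 1) when 1 array was left out. Icam1, an adhesion molecule for leukocytes, read 9.09, 10.41 and 9.90 on the STZ arrays, against 6.25 and 6.59 on the saline arrays (3.38 ± 0.36, limma adjusted p under every setting at most 0.015). Vcam1, another adhesion molecule, rose by 1.35 ± 0.21, and Osmr, a receptor subunit for oncostatin M, by 1.66 ± 0.39, a call that passed in 1 of the 5 fits that left out 1 array. Of 24 kept transport and junction genes of the barrier none was called. Tjp1, a tight junction scaffold, read 7.23, 7.41 and 6.96 on the STZ arrays, against 7.81 and 7.88 on the saline arrays (-0.65, adjusted p = 0.123), and the organic anion transporter Slc22a8 showed -0.92 (adjusted p = 0.102). Neither 23 pericyte and smooth muscle genes nor 30 endothelial markers held a rise. Among 41 fibroblast, meningeal and matrix genes, Slc13a3, a carrier of citric acid cycle intermediates, rose by 1.80 ± 0.32 (adjusted p = 0.013) and Cxcl12 fell.

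The 15 genes with the highest rises outside the immune prefixes included secreted proteins, receptors, enzymes and a transporter. Orm2, an acute-phase glycoprotein of plasma, read 7.71, 13.02 and 11.33 on the STZ arrays, against 4.60 and 4.48 on the saline arrays, where it was undetected. It was at least 45.0-fold higher (limma adjusted p = 0.0285), was uneven within the STZ group and passed in 1 of the 5 fits that left out 1 array, the 1 without STZ 1. Timp1, an inhibitor of matrix metalloproteinases, read 8.35, 11.35 and 10.29 on the STZ arrays, against 5.33 and 5.47 on the saline arrays (4.59 ± 0.72, adjusted p = 0.00622, limma). Hcar2, the receptor of the ketone body beta-hydroxybutyrate and of niacin, read 9.03, 9.59 and 9.16 on the STZ arrays, against 4.80 and 5.67 on the saline arrays (4.02 ± 0.30, adjusted p under every setting at most 0.0019, limma). Hp (haptoglobin), Mmp3 (a matrix metalloproteinase), Chil3 (a chitinase-like protein of macrophages), Batf2, Marco and Gpr18 were undetected on the saline arrays, with lower bounds of 6.24-fold to 10.8-fold. Mmp3 and Chil3 lost the call without STZ 2 and also without STZ 3. Hp, Batf2, Marco and Gpr18 kept it in both of these fits. Calhm6, Slc15a3 (a lysosomal peptide transporter) and Slamf9 rose by 3.85, 3.45 and 3.38.

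STZ 1 divided these rises. Of the 465 genes that rose, STZ 1 was the lowest STZ array for 342, and the median rise above saline was 1.46 on STZ 1, 1.99 on STZ 2 and 1.89 on STZ 3. Among the 275 outside the immune prefixes the medians were 1.26, 1.65 and 1.58. For 264 of the 465, STZ 1 lay within 0.5 log2 units of the mean of the other STZ arrays, and Cdk1 and Hk2 were among those close to that mean. For 16 it lay at least 2 units below it, with Orm2 (4.47 below), Arg1 (3.79), Chil3 (3.12), Mmp3 (2.84), Timp1 (2.47) and Hp (2.44) among them. On STZ 1 the choroid plexus and meningeal genes were low as well, and on STZ 2 the neutrophil and red cell genes were high. Their part in the spread of these rises was not tested.

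**Figure D5:**
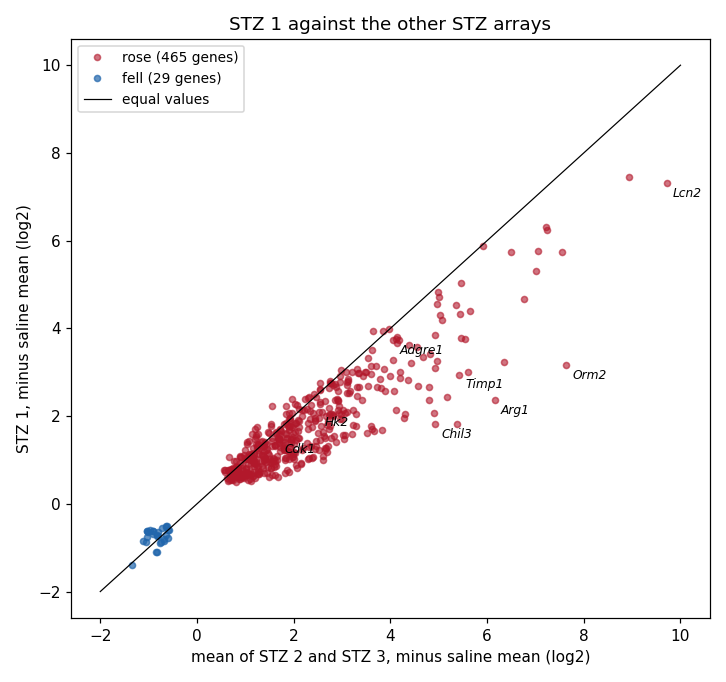
For each gene that rose (465) or fell (29), the value on STZ 1 (y axis) against the mean of STZ 2 and STZ 3 (x axis), each minus the saline mean, in log2 units. Most points lie near or below the line of equal values, and Orm2 and Arg1 lie farthest below it while Cdk1, Hk2 and Adgre1 lie close to it.

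Further lists gave few calls or none, where 4.34% of all genes rose and 0.271% fell. Of 24 immediate early genes 2 rose, Atf3 (at least 2.77-fold, undetected on the saline arrays) and Junb (0.98 ± 0.21), while Fos read 10.26, 10.20 and 9.82 on the STZ arrays and 10.02 and 10.24 on the saline arrays, and the groups overlapped. Without saline 4 or saline 5 none of the 24 was called. Of 28 genes of the unfolded protein and integrated stress responses, Atf3 and Cebpb rose. Insulin and IGF signalling had no call among 30, with Ptpn1, the phosphatase that ends insulin and leptin receptor signalling, at 0.89 (limma adjusted p = 0.0759) and Eif4ebp1, a brake on translation, at 1.75 (adjusted p = 0.102). Thyroid hormone handling (12 genes), the circadian clock (19) and cytosolic ribosomal proteins (39) had none. Among 26 hypoxia and angiogenesis genes only Tgfb1 rose (0.77 ± 0.16, adjusted p = 0.0305).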

How the data were processed

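The raw table, as deposited by the authors, gives linear bead-summary intensity without background subtraction or normalization, and per the file headers a detection p-value beside each. The authors' processed table of log2 values has software and centring not given in the sources used here, and each column has a median of 6.90. It served as an alternative.

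Raw intensities were background-corrected and quantile normalized with neqc (limma 3.58.1, R 4.3.3, offset 16), and probes with a detection p under 0.05 on at least 2 of 8 arrays were kept. The probe table gave a symbol to 23978 of 25697 probes. A linear model of the 3 group means used the 8 arrays together (lmFit, eBayes, 5 residual and 3.93 prior degrees of freedom), with Benjamini-Hochberg adjustment over 15494 probes. The number of arrays limits the precision: on simulated data, 44% of changes of 1 log2 unit and 95% of changes of 2 units were recovered over 15494 probes.

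Where no array of the dimmer group detected a probe, the fold is a lower bound, computed against the lowest detected signal of each array. Named genes were the 20 lowest falls, the 15 highest rises outside immune prefixes, the up to 5 called members of each of 44 lists with the lowest p (or 2 members where none was called) and a fixed set, plus genes that complete a count and those marked as picked later. Members and lists were chosen with earlier results of these data known. Settings tried were the authors' table, background correction, normalization, detection filter, arrays fitted, array weights, prior, replicate block, probe averaging and leaving out each array.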

Additional observations from a re-analysis of the deposited data

How the results depend on the processing

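With 664 probes called (616 higher, 48 lower), the settings that moved a count by over 1.5 times were these. Cyclic loess called 23 lower. A detection p under 0.01 on all arrays, which tests fewer probes, called 332 (303 higher, 29 lower). The 5 compared arrays alone called 15 lower. Array weights, which gave STZ 1 the lowest weight, called 1659 (1066 higher, 593 lower). The replicate block called 336 (334 higher, 2 lower). Leaving out 1 array gave 277 to 1032 calls, 274 to 869 higher and 2 to 163 lower, with the most of each without STZ 1, the fewest in all and higher without saline 4, and the fewest lower without saline 5. The cause of these shifts was not tested. With array weights 64.3% of calls were higher, against 92.8% in the main fit. Median centring moved the median difference of all probes to -0.191, against -0.0949, and called 647 probes. Deviations from the group means correlated between -0.22 and 0.09 for arrays of different groups with the same description number. With groups of 2 or 3 arrays, this check cannot decide whether the numbers pair samples. The fit that used these numbers as a block is the replicate block given above. Slide was not run as a block, since the files name none. Of 91 called genes named by the rule, 34 passed under every alternative and none changed sign. The list medians of astrocytes, endothelial markers and fatty acid oxidation, all near 0, changed sign under at least 1 setting, and those of the 4 neuronal lists did not.

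Signs turned only for genes that the main fit did not call. Settings that turned them were median centring for Rps3 (-0.049) and Gal (-0.12), cyclic loess for Mbp (0.070) and Fos (0.030), array weights for Ttr (0.096), Cga (-0.015) and Pomc (-0.58), and the replicate block for Ttr (0.37) and Fos (0.14). Over the fits that left out 1 array, differences ran from -0.33 to 0.056 for Rps7, -0.0034 to 0.60 for Npy, -0.25 to 0.28 for Gal, -0.14 to 0.10 for Fos, -2.48 to 0.56 for Ttr, -0.83 to 4.33 for Gh, -0.56 to 4.22 for Prl, -0.76 to 2.55 for Tshb, -1.49 to 1.97 for Cga and -1.44 to 1.52 for Pomc. The lowest value was the fit without STZ 2 for Gh, Prl, Tshb, Cga, Npy and Pomc.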
